A study of Mus musculus with 59 samples.

Results

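The 5 genes of the Krüppel-like factor family, *Klf2*, *Klf3*, *Klf4*, *Klf5* and *Klf9*, were followed by RNA-seq through the first days of mouse embryonic stem cell (ESC) differentiation in lines that lose or carry mutant subunits of Polycomb repressive complex 1 (PRC1). They were taken by symbol from the 24391 genes listed in every library, where 17 symbols begin with Klf, and all 5 members were found and tested. *Klf4*, one of the target genes of PRC1 that the study examines, was compared with its 4 paralogues.

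Krüppel-like factors are transcription factors with a carboxy-terminal set of zinc fingers that bind CACCC boxes and related GC-rich sequence. *Klf2*, *Klf4* and *Klf5* sustain self-renewal of naive ESCs, and *Klf4*, a reprogramming factor, is a target of STAT3, the transducer of leukaemia inhibitory factor (LIF). *Klf3* encodes a repressor that recruits the corepressor CtBP, and *Klf9* a small GC-box factor induced by glucocorticoid and thyroid hormone. PRC1 is built on RING1A or RING1B, the E3 ligases that ubiquitylate a histone at target genes, joined to 1 of 6 PCGF subunits. Pluripotent cells keep the naive genes on in LIF, and replace them with formative epiblast genes such as *Fgf5*, *Otx2* and *Pou3f1* once it is withdrawn.

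The 59 libraries came from 6 mouse ESC lines, each sampled as ESCs, kept with LIF and 3i (the FGF receptor, MEK and GSK3 inhibitors SU5402, PD184352 and CHIR99021) on feeder fibroblasts, and as embryoid bodies (EBs), aggregates grown for 2 days without them. All lines carry ERT2-Cre, a Cre activated by 4-hydroxytamoxifen (4-OHT). The study places it at the Rosa26 locus in all lines but Ring1A-pm;Ring1B-cpm, for which it names no locus. Control cells had no 4-OHT and mutant cells were treated with it, so agent and genotype change together and cannot be told apart. The genotypes, control first, were Pcgf1f/f and Pcgf1delta/delta, with 4 control ESC, 5 mutant ESC, 5 control EB and 5 mutant EB libraries. They were Ring1apm/pm;Ring1b and Ring1apm/pm;Ring1bpm/pm in the Ring1A-pm;Ring1B-cpm line (point mutants, pm, that leave the ligase without activity), in which controls also carry mutant Ring1a. They were Ring1a-/-;Ring1bf/f and Ring1a-/-;Ring1bdelta/delta in the Ring1A/B line, in which controls also lack Ring1a, and the floxed and deleted forms of *Pcgf2* with *Pcgf4*, of *Pcgf3* with *Pcgf5*, and of *Pcgf6* in the last 3 lines. These 5 lines have 2 libraries in each of 4 groups. *Pcgf1* to *Pcgf5* were deleted 2 days before EB formation, and deletion in the Ring1A/B and Pcgf6 lines began with it. Each genotype was represented by 1 line, and the sources used here do not say that replicates were separate cultures, so p-values measure the spread between libraries, which may be technical.

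Values are TPM, read density over a gene's transcript scaled so that each library sums to 1000000, and levels may be set beside each other between genes. Depth is unknown, and 6039 to 9139 genes were listed at 0 in a library. The condition written into the deposited library name contradicts the sample label in 21 libraries, out of 32 in the lines for Ring1A/B, Pcgf2/4, Pcgf3/5 and Pcgf6. The labels were kept, and tests are therefore read in the Pcgf1 and Ring1A-pm;Ring1B-cpm lines, where names and labels give the same stage. In the Pcgf1 line *Pcgf1* itself was at 10.7 to 13.6 TPM in ESCs and 7.3 to 16.6 TPM in EBs of controls, whereas mutants had 0.627 to 2.77 TPM as ESCs and 0.978 to 2.47 TPM as EBs. The summed formative genes ranged over 38.4 to 112 TPM as ESCs, against 347 to 3045 TPM as EBs, of that line, and over 48.3 to 115 TPM against 156 to 665 TPM in the Ring1A-pm;Ring1B-cpm line. Of the pluripotency markers, *Pou5f1*, *Sox2*, *Nanog*, *Zfp42* and *Esrrb* summed to 3159 to 3501 TPM over all ESC libraries of the Pcgf1 line. The libraries are bulk RNA, so fewer cells of a type and less RNA per cell cannot be told apart.

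All 5 genes are protein coding and lie on different chromosomes. In mm9, the build of the deposited values, *Klf2* lies at chr8:74842932-74845555 on the plus strand, *Klf4* at chr4:55540013-55545347 on the minus strand and *Klf5* at chr14:99697910-99712624 on the plus strand. *Klf3* lies at chr5:65194628-65221368 and *Klf9* at chr19:23215716-23241401, both on the plus strand. The 250 bases before the start of transcription are shown for 4 of them because PCGF1-containing PRC1 is known to be drawn to unmethylated CpG islands. They are RefSeq sequences of GRCm38.p6 in the direction of the gene, at chr4:55532476-55532725 for *Klf4*, chr8:72318812-72319061 for *Klf2*, chr5:64803271-64803520 for *Klf3* and chr19:23140976-23141225 for *Klf9*, with every CG dinucleotide in capitals.
Klf4: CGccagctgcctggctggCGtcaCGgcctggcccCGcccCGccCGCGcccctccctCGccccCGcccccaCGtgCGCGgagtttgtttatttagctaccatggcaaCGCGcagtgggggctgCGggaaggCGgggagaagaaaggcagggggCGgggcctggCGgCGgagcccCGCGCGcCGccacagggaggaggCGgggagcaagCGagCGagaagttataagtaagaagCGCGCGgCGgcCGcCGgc
Klf2: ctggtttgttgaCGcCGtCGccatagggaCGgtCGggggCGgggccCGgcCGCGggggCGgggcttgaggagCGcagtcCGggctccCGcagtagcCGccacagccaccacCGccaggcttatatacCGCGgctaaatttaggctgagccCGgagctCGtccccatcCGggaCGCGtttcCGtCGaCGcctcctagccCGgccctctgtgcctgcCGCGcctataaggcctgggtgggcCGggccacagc
Klf3: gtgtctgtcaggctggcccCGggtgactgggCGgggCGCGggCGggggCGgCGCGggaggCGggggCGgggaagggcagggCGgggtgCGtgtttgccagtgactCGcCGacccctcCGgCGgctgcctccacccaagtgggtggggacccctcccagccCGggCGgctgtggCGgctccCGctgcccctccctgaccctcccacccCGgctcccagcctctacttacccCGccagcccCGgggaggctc
Klf9: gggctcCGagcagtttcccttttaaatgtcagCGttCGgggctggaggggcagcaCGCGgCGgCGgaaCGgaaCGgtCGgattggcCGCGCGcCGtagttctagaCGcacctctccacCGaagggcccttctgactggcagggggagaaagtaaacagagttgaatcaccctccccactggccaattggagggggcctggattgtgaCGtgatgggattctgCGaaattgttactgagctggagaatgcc

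The *Klf4* stretch holds 32 CG dinucleotides, the *Klf2* stretch 29, the *Klf3* stretch 23 and the *Klf9* stretch 18, against a median of 6 over 32851 mouse promoters of the same length. As many or more occurred in 4.58% of promoters for *Klf4*, 6.78% for *Klf2*, 13.3% for *Klf3* and 21.7% for *Klf9*. The CACCC box, counted on both strands, matched 5 times in *Klf3*, once in *Klf2* and *Klf9* and 0 times in *Klf4*, and 52% of all promoters held a match. The GC box GGGCGG matched 6 times in *Klf3*, 4 in *Klf4*, 2 in *Klf2* and 0 times in *Klf9*, against 32.7% of promoters with a match. The STAT-type motif TTCNNNGAA, which reads the same on both strands, matched only in *Klf9*, once, and in 7.02% of all promoters. The CACCC and GC boxes may share letters, and these matches describe the letters of the window.

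In the Pcgf1 line, *Klf4* was the most abundant of the 5 genes in 8 of 9 ESC libraries and the least abundant in all 5 control EB libraries. In control ESCs its level was 655, 1244, 1270 and 661 TPM in replicates 1 to 4, and in control EBs 3.6, 5.9, 3.54, 12.4 and 11.7 TPM in replicates 1 to 5. The groups did not overlap, and the lowest ESC library was far above the highest EB library. *Klf4* fell by 7.12 ± 0.62 (SE) on the log2(TPM + 0.1) scale (95% interval -8.42 to -5.82, n = 4 and 5, limma adjusted p = 2.7e-07). In mutant ESCs it was 801, 1664, 1554, 821 and 811 TPM. Mutant EBs had 20.2, 15.8, 4.85, 74.6 and 62 TPM. Those groups did not overlap either, and the fall was 5.49 ± 0.58 on the log2 scale (n = 5 and 5, limma adjusted p = 2.44e-06).

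Of the 5 genes, 4 fell between control ESCs and control EBs and none rose. Of all 20594 genes tested, 24.9% were called in that comparison, 13.4% as lower in EBs, and 11.5% had EB libraries that all lay below the ESC libraries, as these 4 had. *Klf2* was 464, 598, 582 and 591 TPM in control ESCs and 53.8, 69.9, 40.6, 149 and 162 TPM in control EBs. It fell by 2.76 ± 0.43 on the log2 scale (limma adjusted p = 0.000104), without overlap, and its EB libraries spread over a wider range of folds than its ESC libraries. *Klf5*, which also acts in the early trophectoderm, was 188, 1240, 945 and 317 TPM in control ESCs and 24.4, 159, 75.9, 50.2 and 50.8 TPM in control EBs. The lowest ESC library of *Klf5*, replicate 1, lay just above its highest EB library, replicate 2. It fell by 3.11 ± 0.69 on the log2 scale (limma adjusted p = 0.00259).

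The repressor gene *Klf3* moved less. It was 90.4, 132, 147 and 91 TPM in control ESCs and 34.7, 87.4, 78.9, 53.2 and 57.2 TPM in control EBs, close to each other but without overlap. It fell by 0.92 ± 0.31 on the log2 scale (limma adjusted p = 0.0378), and that call was lost without control ESC replicate 2 (adjusted p = 0.101) or 3 (0.119), or control EB replicate 1 (0.102), 4 (0.0686) or 5 (0.0617). *Klf9*, the hormone-responsive member, was 105, 218, 225 and 131 TPM in control ESCs and 53.3, 129, 90.5, 112 and 107 TPM in control EBs. These overlapped, with ESC replicate 1 below 3 EB libraries, and the difference of -0.78 ± 0.31 did not pass the test (limma adjusted p = 0.0831). When replicate number entered as a block, the difference was -0.77 and passed (adjusted p = 0.000873), where 43.9% of all genes were called, and it also passed without control ESC replicate 1 (-0.98, adjusted p = 0.0392) and with median-of-ratios scaling (-0.72, adjusted p = 0.0359).

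**Figure D1:**
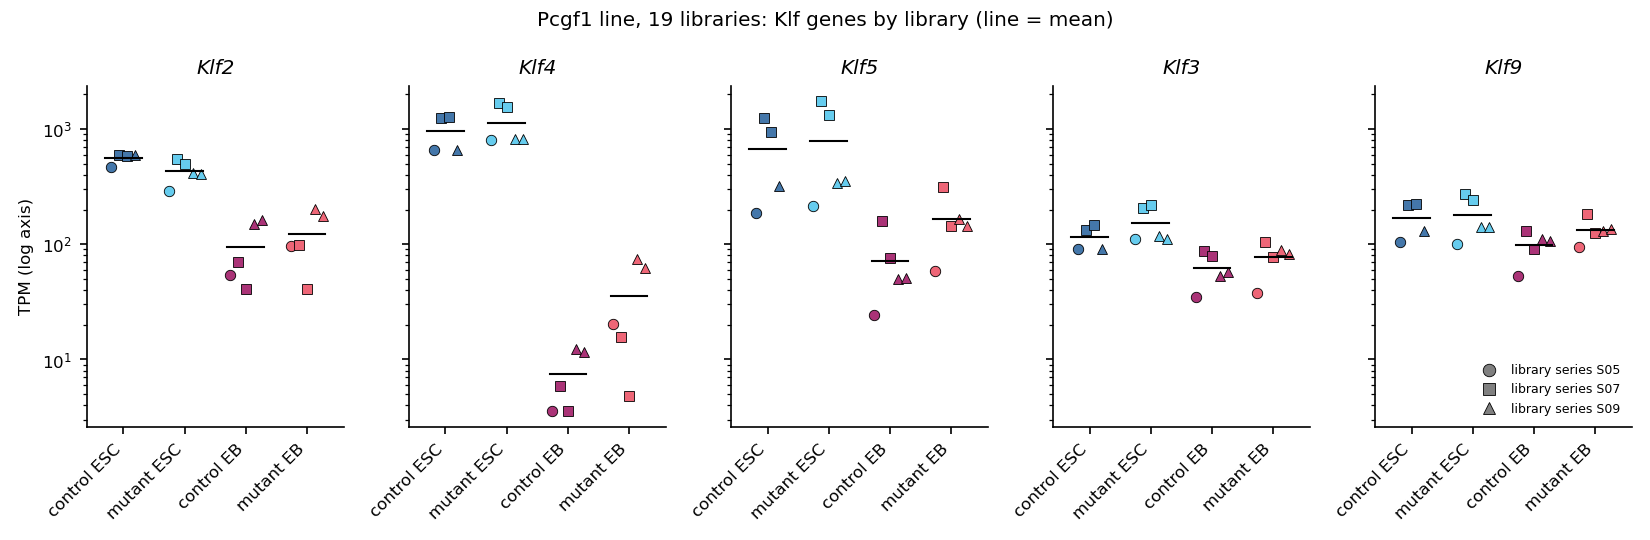
TPM of *Klf2*, *Klf4*, *Klf5*, *Klf3* and *Klf9* (log axis) in the 19 libraries of the Pcgf1 line, one point per library, with the group mean as a line and the library series as the point shape. *Klf4* lies at 655 TPM or above in all ESC libraries and at 74.6 TPM or below in all EB libraries, while *Klf3* and *Klf9* differ less between the stages.

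In mutant cells 4 of the 5 genes also fell between ESCs and EBs, where 18.3% of all genes were called, 10.2% as lower, and 8.56% were lower without overlap. *Klf2* was 287, 544, 492, 418 and 406 TPM in mutant ESCs and 96.9, 98.7, 41.2, 203 and 177 TPM in mutant EBs, without overlap, and fell by 1.97 ± 0.40 on the log2 scale (limma adjusted p = 0.00175). *Klf3* was 112, 205, 220, 119 and 111 TPM in mutant ESCs and 37.9, 104, 76.7, 89.1 and 81.8 TPM in mutant EBs, and fell by 0.98 ± 0.30 (limma adjusted p = 0.0255). *Klf5* was 214, 1731, 1323, 342 and 353 TPM in mutant ESCs and 58.6, 312, 145, 164 and 144 TPM in mutant EBs. Its groups overlapped, since mutant EB replicate 2 lay above mutant ESC replicate 1, and it fell by 1.98 ± 0.65 (limma adjusted p = 0.0412). *Klf9* was 100, 270, 244, 141 and 142 TPM in mutant ESCs and 93.9, 182, 126, 131 and 135 TPM in mutant EBs, and its difference of -0.36 ± 0.30 did not pass the test (adjusted p = 0.477).

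The calls of *Klf3* and *Klf5* in mutant cells lay near the threshold and did not hold without some single libraries. Leaving out each library gave differences of -1.11 to -0.74 for *Klf3* and -2.33 to -1.57 for *Klf5*. The *Klf3* call was lost without mutant EB replicate 1 (adjusted p = 0.0735), mutant ESC replicate 2 (0.0716) or mutant ESC replicate 3 (0.0739). The *Klf5* call was lost without mutant EB replicate 1 (adjusted p = 0.111), 3 (0.0718), 4 (0.0577) or 5 (0.0656), or mutant ESC replicate 2 (0.117) or 3 (0.11).

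The group means set the order of levels of each gene. *Klf4* averaged 1130 ± 439 TPM (SD, n = 5) in mutant ESCs, 958 ± 346 (n = 4) in control ESCs, 35.5 ± 30.8 (n = 5) in mutant EBs and 7.42 ± 4.32 (n = 5) in control EBs. *Klf2* averaged 559 ± 63.5 TPM in control ESCs, 429 ± 97.5 in mutant ESCs, 123 ± 65.8 in mutant EBs and 95 ± 56.3 in control EBs. *Klf5* averaged 793 ± 688, 673 ± 502, 165 ± 92.1 and 72 ± 51.7 TPM in mutant ESCs, control ESCs, mutant EBs and control EBs. In that same order *Klf3* averaged 153 ± 54.3, 115 ± 28.9, 77.8 ± 24.5 and 62.3 ± 21.1 TPM, and *Klf9* 180 ± 73.6, 170 ± 60.4, 134 ± 31.5 and 98.2 ± 28.7 TPM. For every gene the libraries of neighbouring mutant and control groups of 1 stage overlapped.

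*Klf4* changed its place relative to each paralogue between the stages. The log2 ratio of *Klf4* to a paralogue, formed within a library, averaged 0.71 to *Klf2*, 0.82 to *Klf5*, 3.02 to *Klf3* and 2.49 to *Klf9* in control ESCs. Towards control EBs the ratio fell by 4.36 for *Klf2*, by 4.01 for *Klf5*, by 6.20 for *Klf3* and fell by 6.35 for *Klf9* on the log2 scale. No library of one stage overlapped the other in any of these ratios (two-sided exact permutation test, p = 0.0159 for each, the smallest that 4 against 5 libraries allow, adjusted p = 0.0282 over 16 comparisons). In mutant cells the ratios fell by 3.53, 3.52, 4.51 and 5.14 in the same order, again without overlap (exact permutation p = 0.00794 for each, the smallest that 5 against 5 allow, adjusted p = 0.0254).

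**Figure D2:**
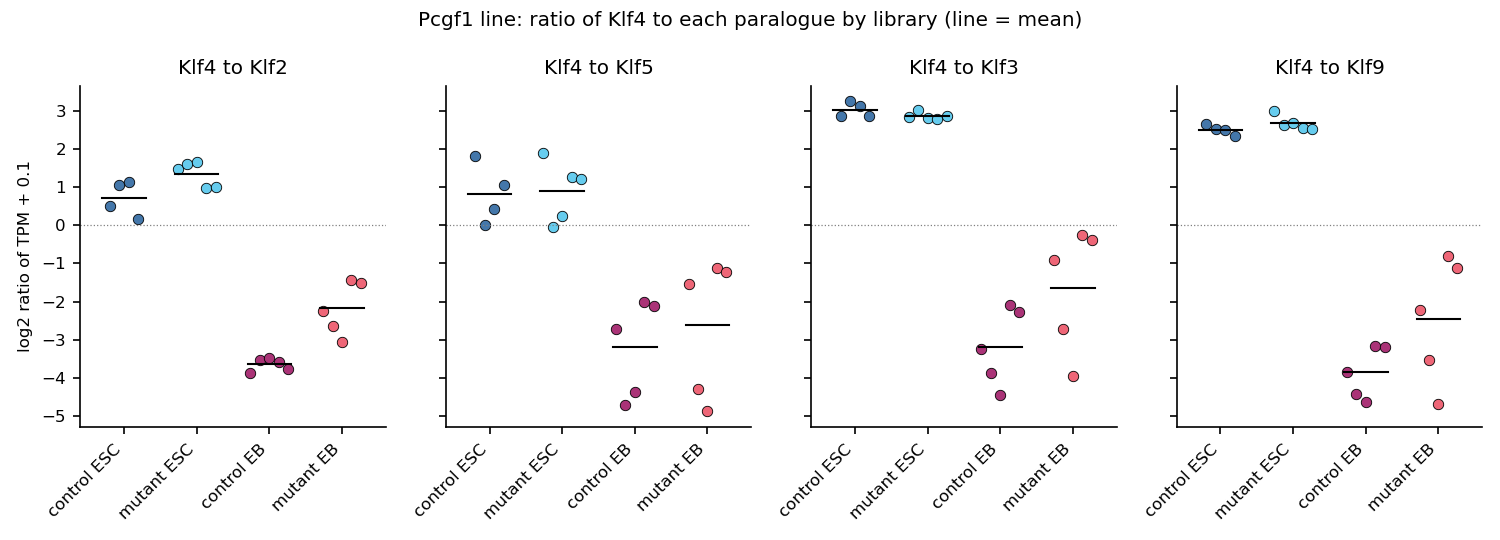
The log2 ratio of *Klf4* to *Klf2*, *Klf5*, *Klf3* and *Klf9* (TPM + 0.1) in each library of the Pcgf1 line, with the group mean as a line and equal levels at the dotted line. All ratios to *Klf2*, *Klf3* and *Klf9* are above 0 in ESCs and below 0 in EBs, and the ratio to *Klf2* in mutant EBs (-3.06 to -1.44) lies above that in control EBs (-3.87 to -3.48).

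Between mutant and control ESCs of the Pcgf1 line none of the 5 genes was called by limma, and 0 reached an unadjusted p under 0.05, where 0.641% of all genes were called. *Klf4* differed by 0.23 ± 0.62 on the log2 scale (95% interval -1.07 to 1.53, adjusted p = 1), *Klf5* by 0.14 ± 0.69, *Klf3* by 0.38 ± 0.31 and *Klf9* by 0.06 ± 0.31. *Klf2* had the only negative value, -0.41 ± 0.43 (adjusted p = 0.923). With the replicate number as a block 5.31% of all genes were called and still none of the 5. The ratio of *Klf4* to *Klf2* was 0.64 higher in mutant ESCs (exact permutation p = 0.0952, adjusted p = 0.152), and the other 3 ratios differed by -0.15 to 0.17.

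Same-numbered libraries of this line deviate together, so pairs were read too. Replicate number goes with library series, of which this line has 3, so pairs of the same series may not be independent. In the 4 ESC pairs *Klf4* was higher in the mutant in 4 of 4, by 0.29 to 0.42 on the log2 scale. *Klf2* was lower in 4 of 4, by -0.69 to -0.14, *Klf3* higher in 4 of 4, by 0.30 to 0.64, and *Klf5* higher in 4 of 4, by 0.11 to 0.49. *Klf9* was higher in 3 of 4. A sign-flip test of 4 pairs cannot give a p below 0.125. The share of all genes that moved 1 way in every pair was not counted, in ESCs or in EBs. Counts of pairs therefore do not set these genes apart from others.

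Between mutant and control EBs of the Pcgf1 line, *Klf4* was higher in the mutant member of each of the 5 pairs, by 0.44 to 2.59 on the log2 scale. The groups overlapped because mutant EB replicate 3, at 4.85 TPM, lay among the controls, while replicates 1, 2, 4 and 5 lay above all of them. The difference was 1.86 ± 0.58 (95% interval 0.63 to 3.08) and did not pass the test (limma adjusted p = 0.124), where 1.95% of all genes were called. It passed with the replicate number as a block (adjusted p = 0.045) and without mutant EB replicate 3 (2.42, adjusted p = 0.0146). By library series, read here from the leading part of the library identifier in the file headers, it was 2.46 in S05 (replicate 1), 0.92 in S07 (replicates 2 and 3) and 2.49 in S09 (replicates 4 and 5).

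*Klf5* was higher in the mutant EB in 5 of 5 pairs, by 0.93 to 1.70 on the log2 scale, on levels that themselves ranged widely between pairs. Its difference of 1.28 ± 0.65 did not pass without the block (limma adjusted p = 0.471) and passed with it (SE 0.23, adjusted p = 0.00232). *Klf9* was higher in 5 of 5 pairs, by 0.23 to 0.82, and its difference of 0.47 ± 0.30 also passed only with the block (adjusted p = 0.635 and 0.0499). *Klf2* was higher in 5 of 5 pairs, by 0.02 to 0.85, and *Klf3* in 4 of 5, by -0.04 to 0.74. Neither passed with or without the block, at 0.39 ± 0.40 (adjusted p = 0.831, blocked 0.497) and 0.32 ± 0.30 (0.799, blocked 0.244). The block thus took the count of the 5 genes called from 0 to 3, while the share of all genes called went from 1.95% to 10.4%, and 1 of the 5 had an unadjusted p under 0.05 without it.

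**Figure D3:**
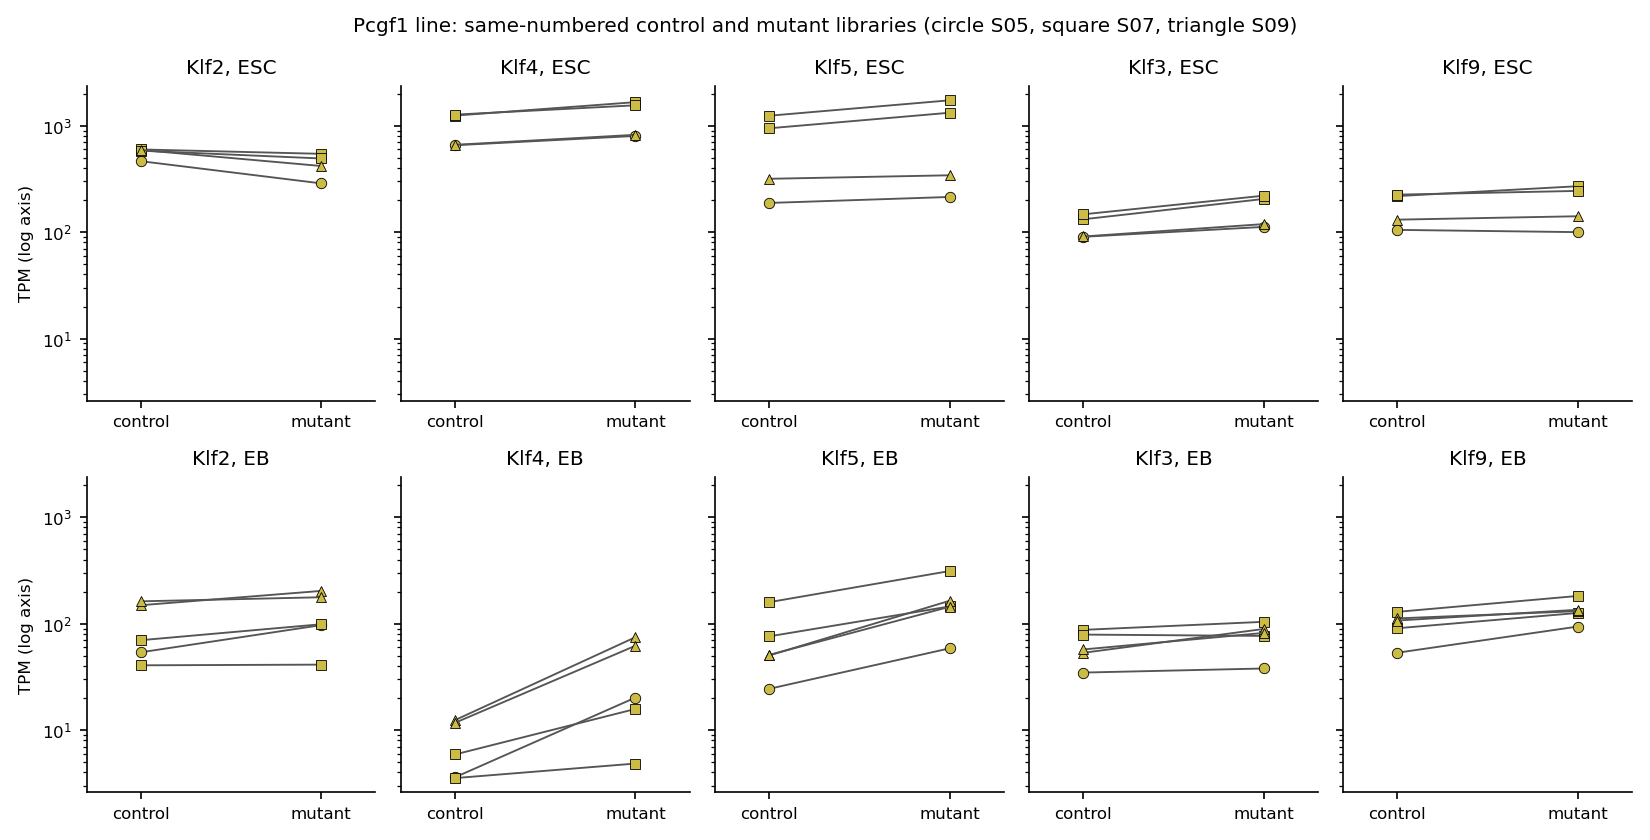
TPM (log axis) of the 5 genes in same-numbered control and mutant libraries of the Pcgf1 line, joined by lines, ESCs above and EBs below, with the library series as the point shape. The EB lines of *Klf4*, *Klf5*, *Klf2* and *Klf9* rise from control to mutant in 5 of 5 pairs, and that of *Klf4* is shallowest for replicate 3 (3.54 to 4.85 TPM).

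Set against its paralogues, *Klf4* in mutant EBs was separated from control EBs without overlap in 1 ratio of 4. The ratio of *Klf4* to *Klf2* was -3.65 ± 0.16 (SD, n = 5) in control EBs and -2.18 ± 0.70 (n = 5) in mutant EBs, with no overlap. The difference was 1.47 ± 0.32 (SE, exact permutation p = 0.00794, adjusted p = 0.0254). Leaving out each library gave 1.28 to 1.69, and the call was lost in 5 of 10 cases (highest exact permutation adjusted p = 0.0508), where fewer libraries raise the smallest p. The ratio to *Klf5* differed by 0.58 (exact permutation p = 0.548, adjusted 0.584), that to *Klf3* by 1.54 (p = 0.111, adjusted 0.162) and that to *Klf9* by 1.38 (p = 0.135, adjusted 0.163). Within same-numbered pairs the ratios to *Klf2* and *Klf3* were both higher in the mutant in 5 of 5 (exact sign-flip permutation p = 0.0625 for each, the smallest 5 pairs allow), and those to *Klf5* and *Klf9* in 4 of 5 (p = 0.188 and 0.125). A difference in the size of the mutant effect between EBs and ESCs was not called for any of the 5 genes. Of all genes 0.00486% were called (1.62% with the block). It was 1.63 ± 0.85 for *Klf4* (95% interval -0.16 to 3.42, limma adjusted p = 0.92), 1.13 ± 0.95 for *Klf5* and 0.79 ± 0.59 for *Klf2*.

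The fall of the naive Krüppel-like factors between the stages was seen in each library series. *Klf4* was lower in control EBs than in control ESCs by -7.47 in S05, -8.07 in S07 and -5.77 in S09 on the log2 scale, *Klf2* by -3.11, -3.47 and -1.93, and *Klf5* by -2.94, -3.30 and -2.65. In mutant cells *Klf4* was lower by -5.30, -7.50 and -3.58. Markers of other cells and of handling moved with the stages, and their part in these results was not tested. The sum of 10 feeder fibroblast genes was 223 to 323 TPM in control ESCs, 168 to 254 in mutant ESCs, 26.9 to 53.1 in control EBs and 8.8 to 15.7 in mutant EBs, with 7 of the 10 genes lower and 2, *Dcn* and *Thy1*, higher in control EBs and *Lum* at 0 in every mutant EB library. The sum of 12 immediate early genes was 1497 to 2666 TPM in ESCs and 151 to 404 TPM in EBs, and *Fosb* went from 60.9 to 205 TPM to 0.063 to 0.307 TPM.

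Genes that act with these factors were counted from lists of the pathway. Of 14 naive pluripotency partners, 9 fell and 1, *Gbx2*, rose between control ESCs and control EBs (median log2 difference -1.97, against 0.00 over all genes). Of all genes 13.4% were called as lower and 11.5% as higher in control cells, and 10.2% and 8.13% in mutant cells. *Tfcp2l1*, a naive factor downstream of STAT3, fell by 5.08, *Esrrb* by 2.73 and *Nanog* by 2.12. Of 8 LIF and STAT3 pathway genes 7 fell (median -2.46), with the feedback inhibitor *Socs3* at -4.96 and *Stat3* at -3.07, and in mutant cells 4 fell, or 7 with the block, where 36.8% of all genes were called. All 5 formative genes rose in both genotypes (medians 5.34 and 4.16), and 10 of 12 immediate early genes fell in both (-3.62 and -3.57), led by *Fosb* at -9.03 and *Fos* at -8.23 in control cells. Among other Polycomb target genes, *Tbx3* and *Pdgfa* fell and *Sox4* and *Grhl2* rose in both genotypes, these 4 being a list taken from the text of the study.

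Among the 12 other Krüppel-like factor genes, 5 fell in control cells, where 13.4% of all genes were called as lower. These were *Klf6*, *Klf8*, *Klf10*, *Klf11* and *Klf15*, by 1.47, 1.81, 1.68, 1.47 and 1.15 on the log2 scale. In mutant cells 5 fell, where 10.2% of all genes were called as lower. None rose without the block. With it, where 43.9% of all genes were called, *Klf7*, *Klf12*, *Klf13* and *Klf14* rose in control cells, by 1.49, 1.28, 0.34 and 1.79. Between mutant and control EBs none of the 12 was called, where 1.95% of all genes were called (10.4% with the block). The block called *Klf13* (-0.52) and *Klf15* (-1.09) as lower in mutant EBs. In the same comparison 4 of the 14 naive partners rose: *Gbx2* by 1.67, *Tfcp2l1* by 1.52, *Nr0b1* by 1.26 and *Nr5a2* by 1.16 (limma adjusted p = 0.0154, 0.0237, 0.00492 and 0.0212). With the block 7 rose, *Prdm14*, *Esrrb* and *Tbx3* being added.

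Other lists had few calls between mutant and control EBs, where 1.95% of all genes were called (10.4% with the block). Of 8 LIF and STAT3 pathway genes *Bcl3* rose, and 5 did with the block. Of 12 immediate early genes *Atf3* rose, and with the block *Junb* also rose and *Jun* fell. Of 5 formative genes none was called, although *Dnmt3b* and *Pou3f1* fell with the block. The formative sum was 1544, 3045, 2888, 1049 and 1080 TPM in control EB replicates 1 to 5 and 703, 1823, 1823, 347 and 351 TPM in mutant EB replicates 1 to 5, lower in the mutant in 5 of 5 pairs. The mutant values were least reduced in replicates 2 and 3, the pairs with the smallest *Klf4* differences, and the part of this shift in the *Klf4* values was not tested. Markers of 2 other lineages moved here too: *Gata4* and *Gata6*, transcription factors of primitive endoderm, rose by 1.40 and 2.60 (limma adjusted p = 0.0361 and 0.0223), as did *Eomes* of the trophoblast, and *Thy1* of the feeder list fell. Those were 2 of 6 primitive endoderm genes, which summed to 6.83 to 18.7 TPM in control and 8.38 to 22.7 TPM in mutant EBs, and 1 of 6 trophoblast genes, at 10.9 to 23.4 and 14.8 to 33.2 TPM with *Elf5* at 0 in all EB libraries. With the block 4 of 6 primitive endoderm genes rose, *Sox17* and *Sox7* being added, and 2 of 6 trophoblast genes, *Hand1* being added. Of 10 feeder genes *Dcn*, *Fbln2* and *Thy1* fell with it. The part of these markers in the *Klf4* values was not tested. In mutant ESCs against control ESCs, *Pcgf1* (-3.23, limma adjusted p = 0.000664) and *Otx2* (-2.18, adjusted p = 0.00522) were the only genes of any list called without the block. With the block, where 5.31% of all genes were called, *Gbx2*, *Junb*, *Dnmt3b* and *Sox7* were also called as higher and *Ascl2* as lower. In mutant EBs *Pcgf1* fell by 2.84 (adjusted p = 0.000637).

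The genes most like each factor across the 19 libraries of the Pcgf1 line were ranked by Pearson's r of log2 levels among 9756 genes. The libraries share stage, genotype and library series, so the values describe shared group differences as well as shared deviations. For *Klf4* they were *Agtrap* and *Atp1b1* (r = 0.990 each), and *Fam81a* and *Mapt* (0.986 each). For *Klf2* they were *A4galt* (0.988) and *Jakmip1* (0.980), for *Klf5* *Prkar2a* (0.991) and *Llgl2* (0.985), for *Klf3* *Lasp1* and *Dnm2* (0.971 each), and for *Klf9* *Itpr3* (0.975) and *Prx* (0.972).

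Within the family, *Klf2* varied with *Klf4*, and *Klf5*, *Klf3* and *Klf9* with each other. *Klf2* and *Klf4* had r = 0.958 over the 19 libraries, and 0.92 once group means were removed. *Klf5* went with *Klf3* (0.945, and 0.91 without group means) and with *Klf9* (0.922 and 0.94), and *Klf3* with *Klf9* (0.870 and 0.85). Between these 2 sets *Klf4* had r = 0.815 with *Klf5*, 0.761 with *Klf3* and 0.635 with *Klf9*, and 0.29, 0.28 and 0.42 without group means. *Klf2* had 0.739, 0.669 and 0.619 with the same genes, and 0.18, 0.15 and 0.38 without group means. Library series shows in these values, since *Klf5* was 945 and 1240 TPM in the 2 control ESC libraries of S07 and 188 and 317 TPM in the other series.

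In the Ring1A-pm;Ring1B-cpm line 3 of the 5 genes fell between control ESCs and control EBs, where 4.73% of all genes were called and 2% as lower, and 22.7% had EB libraries that all lay below the ESC libraries. *Klf4* was 262 and 333 TPM in control ESCs and 37.2 and 65.1 TPM in control EBs, without overlap, and fell by 2.58 ± 0.26 on the log2 scale (n = 2 and 2, limma adjusted p = 0.00331). *Klf5* was 190 and 124 TPM in control ESCs and 40 and 44.1 TPM in control EBs, and fell by 1.87 ± 0.22 (adjusted p = 0.00611). *Klf2* was 245 and 214 TPM in control ESCs and 107 and 131 TPM in control EBs, and fell by 0.95 ± 0.17 (adjusted p = 0.0282). *Klf3* was 50.2 and 49 TPM in control ESCs and 26.8 and 46.7 TPM in control EBs (-0.49 ± 0.24, adjusted p = 0.317), and *Klf9* 83.6 and 84.1 TPM against 85.5 and 94.7 TPM (0.10 ± 0.16, adjusted p = 0.78). *Klf2* was no longer called without any 1 of the 4 libraries compared (adjusted p = 0.114 to 0.193), *Klf4* without control ESC replicate 2 (0.0621), and *Klf5* without control ESC replicate 1 (0.0572) or control EB replicate 1 (0.0862) or 2 (0.0839).

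In point-mutant cells of that line none of the 5 genes was called between ESCs and EBs by limma, where 0.133% of all genes were called, and 3 had an unadjusted p under 0.05. Of all genes 20.4% were lower and 19.1% higher in EBs without overlap. *Klf4* was 298 and 334 TPM in mutant ESCs and 104 and 122 TPM in mutant EBs, lower in both EB libraries (-1.49 ± 0.26, adjusted p = 0.13). With replicate number as a block, of which this line has only 2, that fall was called (limma adjusted p = 0.0275), where 102 of 20279 genes were called. The mutant effect on *Klf4* differed between the stages by 1.10 ± 0.36, which was not called (limma adjusted p = 0.712). *Klf2* was 139 and 104 TPM in mutant ESCs and 182 and 195 TPM in mutant EBs, higher in both EB libraries (0.65 ± 0.17, adjusted p = 0.294). *Klf5* was 119 and 88.1 TPM in mutant ESCs and 62.7 and 63.1 TPM in mutant EBs (-0.70 ± 0.22, adjusted p = 0.393). *Klf3* went from 49.9 and 48 TPM to 40.8 and 45.7 TPM, and *Klf9* from 82 and 80.1 TPM to 81 and 109 TPM.

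In ESCs of that line *Klf2* was the only one of the 5 called between mutants and controls. It was lower in the mutants, by 0.93 ± 0.17 on the log2 scale with no overlap (limma adjusted p = 0.0419), where 2.54% of all genes were called, 0.197% as lower, and 12.9% were lower without overlap. *Klf5* differed by -0.59 ± 0.22 (adjusted p = 0.234), *Klf4* by 0.09 ± 0.26, *Klf3* by -0.02 and *Klf9* by -0.05. In EBs *Klf4* was the only one called between mutants and controls. It rose by 1.19 ± 0.26 (adjusted p = 0.048) with both mutant libraries above both controls, where 4.53% of all genes were called, 3.76% as higher, and 30.1% were higher without overlap. *Klf2* differed by 0.67 ± 0.17 (adjusted p = 0.0784), *Klf5* by 0.58 ± 0.22 (0.194), *Klf3* by 0.29 and *Klf9* by 0.06. The median of all genes shifted by 0.12 between the ESC groups and 0.10 between the EB groups.

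Both calls depended on single libraries and on the processing. The *Klf4* call in EBs was also lost with a pseudocount of 1 (limma adjusted p = 0.053), median-of-ratios scaling (0.0605), quantile normalization (0.0581) and a fit of those 2 groups alone (0.109), and the *Klf2* call in ESCs with quantile normalization (0.0585) and a fit of 2 groups (0.121). Without any 1 of the 4 EB libraries the *Klf4* difference was 0.79 to 1.59 and was not called, at adjusted p = 0.17 without control EB replicate 1, 0.0594 without control EB replicate 2, 0.172 without mutant EB replicate 1 and 0.208 without mutant EB replicate 2. Without any 1 of the 4 ESC libraries the *Klf2* difference was -1.14 to -0.72 and was not called (adjusted p = 0.12 to 0.237). The mutant effect on *Klf2* differed between the stages by 1.60 ± 0.25 (95% interval 1.02 to 2.17), which did not pass over all genes (limma adjusted p = 0.163), 0.00986% of which were called.

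**Figure D4:**
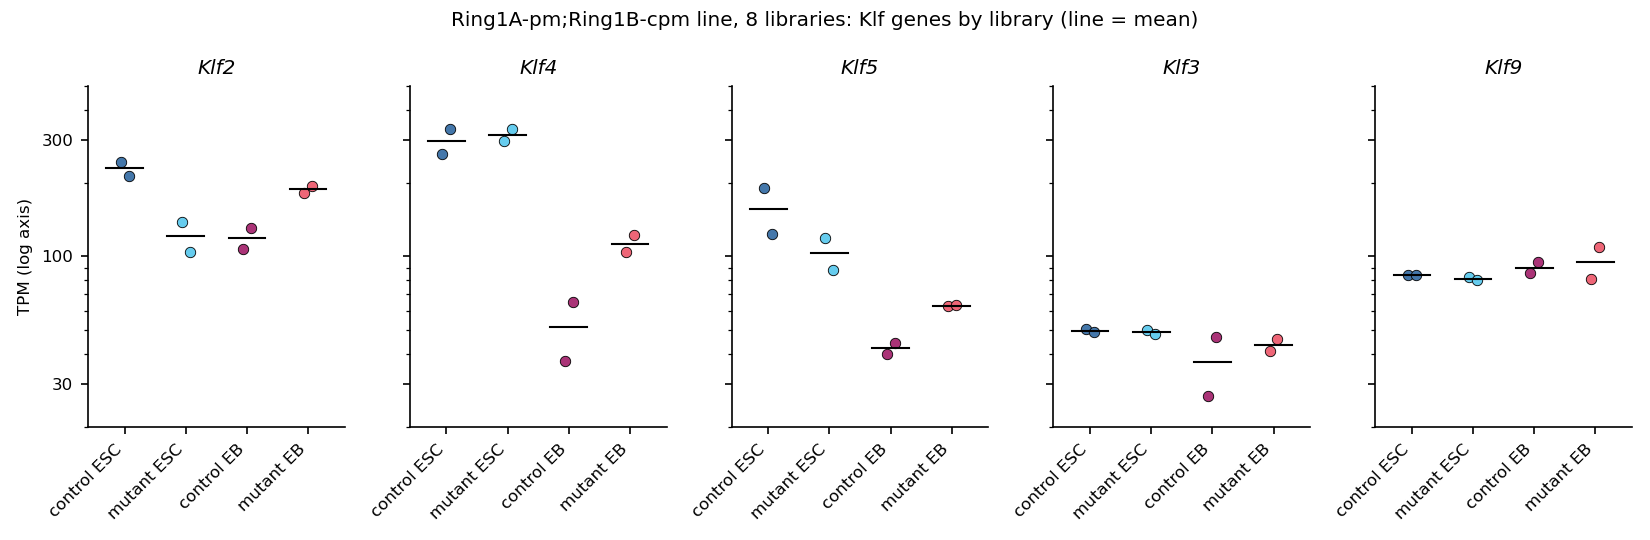
TPM (log axis) of the 5 genes in the 8 libraries of the Ring1A-pm;Ring1B-cpm line, one point per library, with the group mean as a line. *Klf4* is 262 to 334 TPM in all ESC libraries, 37.2 and 65.1 TPM in control EBs and 104 and 122 TPM in mutant EBs, and *Klf2* is lower in mutant than control ESCs and higher in mutant than control EBs.

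With 2 libraries in each group the ratios of *Klf4* to its paralogues in this line are given without a test. They were lower in control EBs than in control ESCs by -1.64 to *Klf2*, -0.72 to *Klf5*, -2.10 to *Klf3* and -2.68 to *Klf9*, and in mutant cells by -2.14, -0.79, -1.31 and -1.70. Mutant EBs were above control EBs in all 4, by 0.52, 0.61, 0.90 and 1.13. *Klf5* thus kept closest to *Klf4* between the stages in both genotypes of this line.

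The partner genes of the Ring1A-pm;Ring1B-cpm line were counted in the same way. Between control ESCs and control EBs 7 of 14 naive partners and 4 of 8 LIF and STAT3 genes fell, *Socs3* by 4.00 and *Stat3* by 1.53. Of 5 formative genes 4 rose. Of all genes 2% were called as lower and 2.73% as higher there. Of the 12 other Krüppel-like factor genes only *Klf8* was called, as lower (-1.08, limma adjusted p = 0.043), and *Klf6* was 1.09 (adjusted p = 0.0535). In mutant EBs against controls 3.76% of all genes were called as higher and 0.764% as lower. The naive partners *Tcl1*, *Tbx3* and *Nanog* rose in that comparison, as did *Socs3* (1.71). Of 5 formative genes *Fgf5*, *Otx2* and *Pou3f1* fell by 3.36, 2.04 and 1.89 while *Sox3* rose by 1.60. Markers of other cells moved here as well, and their part in the *Klf4* difference was not tested: *Gata6*, 1 of 6 primitive endoderm genes, rose, as did 2 of 6 trophoblast genes, *Hand1* among them, and 3 of 10 feeder genes. The primitive endoderm sum was 13.6 to 18.4 TPM in control and 30.6 to 33.6 TPM in mutant EBs, and the trophoblast sum 15.8 to 22.5 and 36.8 to 37.7 TPM. The feeder sum was 33.1 to 39.3 TPM for control EBs, against 82 to 85.1 TPM for mutant EBs, and the immediate early sum 241 to 281 TPM and 225 to 330 TPM. Between mutant and control ESCs, where *Klf2* was lower, *Gata4* and *Gata6* rose by 2.87 and 2.38 (primitive endoderm sum 4.96 to 6.18 TPM in controls and 23.7 to 25.2 TPM in mutants), and the feeder sum was 41.3 to 46.2 TPM in controls and 72.9 to 77.1 TPM in mutants.

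In the other 4 lines the levels are given by label with the naming beside them. In the Ring1A/B line *Klf4* was 754 and 766 TPM in the libraries labelled control ESC, 9.9 and 7.38 TPM in those labelled mutant ESC, 665 and 709 TPM in those labelled control EB, and 117 and 118 TPM in those labelled mutant EB. The 2 libraries labelled mutant ESC are named for control EBs and the 2 labelled control EB are named for mutant ESCs. *Klf2* in the same order was 767 and 812, 142 and 132, 469 and 520, and 199 and 203 TPM. By label, limma put the *Klf4* difference at -0.15 between the libraries labelled control EB and control ESC (adjusted p = 0.357), at 3.76 between those labelled mutant EB and mutant ESC (4.19e-07), at -6.46 between those labelled mutant ESC and control ESC (5.25e-08) and at -2.55 between those labelled mutant EB and control EB (9.19e-06). Members called were 3, 5, 5 and 5 of 5, where 43.2%, 56.5%, 48.8% and 33.3% of all genes were called, and no direction between stages or genotypes is drawn from them.

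In the Pcgf2/4 line *Klf4* was, in replicates 1 and 2, at 120 and 9.31 TPM (labelled control ESC), 168 and 8.54 TPM (mutant ESC), 134 and 11.1 TPM (control EB), and 152 and 10.3 TPM (mutant EB), so 1 of the 2 libraries of each group was high and the other low. In the Pcgf6 line it was 142 and 3.25, 200 and 4.11, 143 and 16.1, and 156 and 13.7 TPM in that order, with the same split. In the Pcgf3/5 line it was 178 and 138, 142 and 12.1, 9.23 and 6.8, and 7.74 and 183 TPM, and only the groups labelled mutant ESC and mutant EB held 1 high and 1 low library. None of the 5 genes was called in any of the 4 comparisons by label in these 3 lines. The share of all genes called was 0% in the Pcgf2/4 and Pcgf6 lines and 0.0601%, 0%, 0.0401% and 0.0301% in the Pcgf3/5 line (in the order of comparisons above), and an unadjusted p under 0.05 was reached by 2 of the 5 in 1 comparison, between the libraries labelled control EB and control ESC of the Pcgf3/5 line.

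Over the 32 libraries of these 4 lines, 7 of 16 labelled ESC are named for EBs and 7 of 16 labelled EB for ESCs. The summed formative genes, which are not of the family, were 47.3 to 151 TPM in the libraries named for ESCs and 407 to 1086 TPM in those named for EBs, without overlap. *Klf4* was 120 to 766 TPM in the former and 3.25 to 118 TPM in the latter, against 3.25 to 766 TPM and 6.8 to 709 TPM by label. *Klf2* overlapped by name, at 247 to 812 TPM and 132 to 525 TPM, as did *Klf5* (76.9 to 289 and 30.7 to 148 TPM), *Klf3* (37 to 107 and 21.2 to 64.8 TPM) and *Klf9* (77.9 to 170 and 104 to 173 TPM). These ranges are a description, and no test was made by name.

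**Figure D5:**
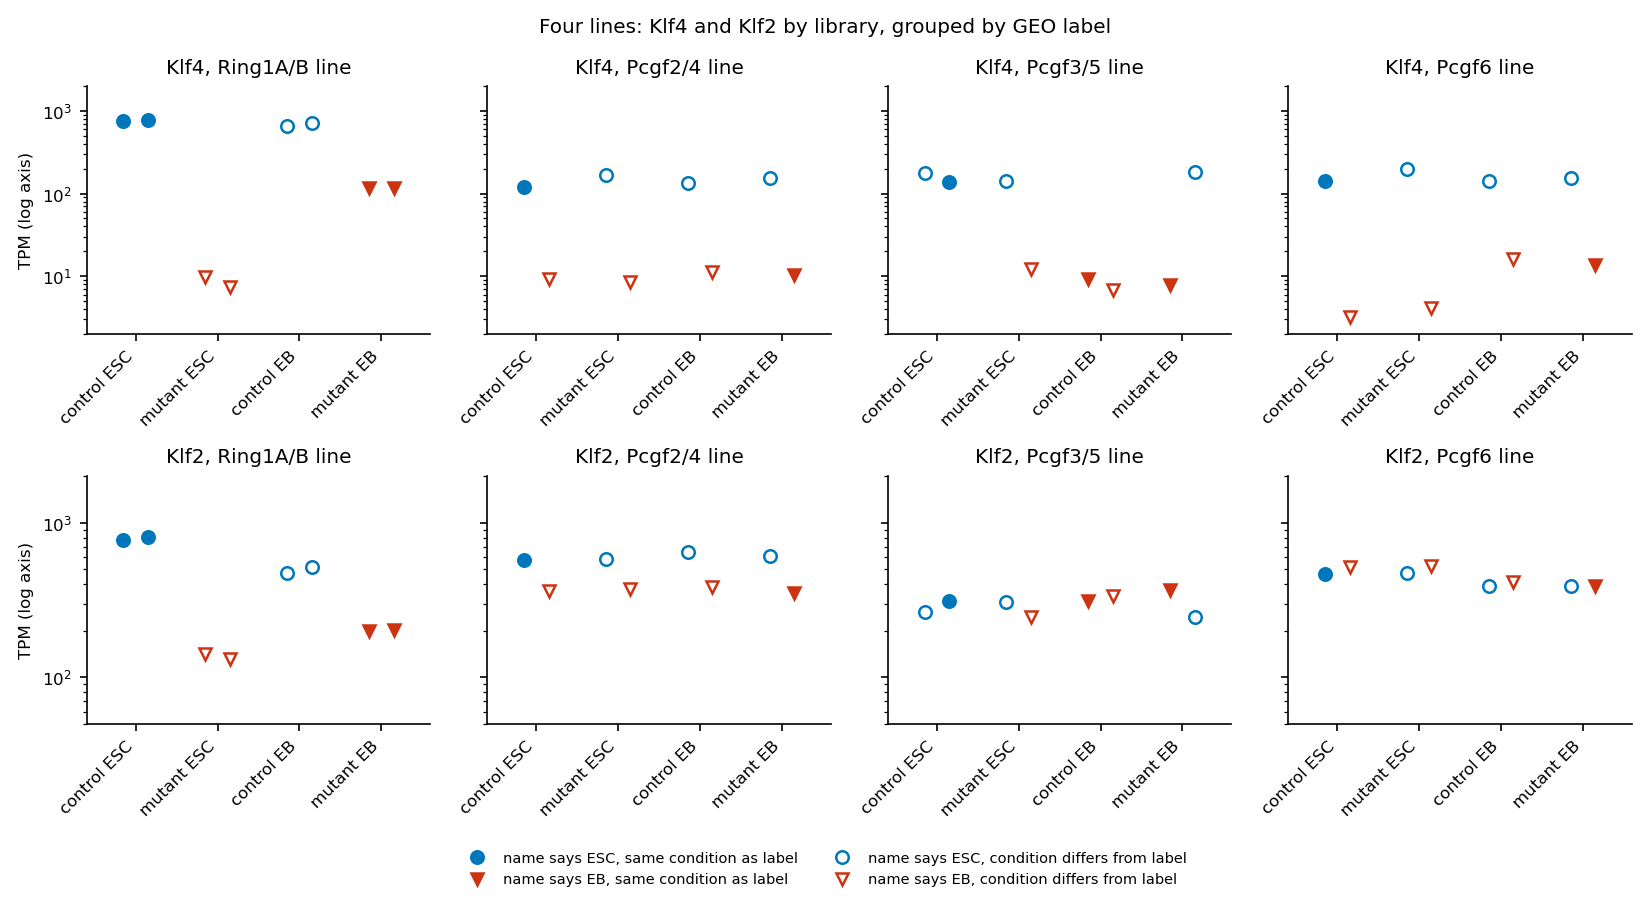
TPM (log axis) of *Klf4* and *Klf2* in each library of 4 lines (Ring1A/B, Pcgf2/4, Pcgf3/5, Pcgf6), placed by sample label, with the stage in the deposited name as colour and shape and open points where the named condition differs from the label. *Klf4* is 120 TPM or above in all 16 libraries named for ESCs and 118 TPM or below in all 16 named for EBs, while *Klf2* of the Pcgf6 line overlaps, at 387 to 474 TPM in its libraries named for ESCs and 388 to 525 TPM in those named for EBs.

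*Klf2* covered a narrower range of folds than *Klf4* in the Pcgf2/4, Pcgf3/5 and Pcgf6 lines. It was 573 and 362, 584 and 373, 646 and 386, and 610 and 352 TPM for the 4 labelled groups of the Pcgf2/4 line in the order above. In the Pcgf3/5 line it was 263 and 310, 309 and 246, 313 and 337, and 365 and 247 TPM, and in the Pcgf6 line 467 and 519, 474 and 525, 387 and 416, and 390 and 388 TPM. Across the libraries of the Pcgf3/5 line the highest *Klf2* value was 365 TPM and the lowest 246 TPM, while *Klf4* ran from 6.8 to 183 TPM in the same libraries.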

How the data were processed

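RNA-seq libraries of 59 mouse ESC and EB samples were analysed. The authors aligned single-end reads to mm9 with STAR 2.5.2b and counted reads over exons, and the deposited values are TPM per gene symbol; how counts became TPM is not given in the sources used here. Depth is therefore unknown, TPM are not counts, and no count model was run. Samples were grouped by label. For 1 mutant EB library of the Pcgf1 line the title gives replicate 4 and another label replicate 5, and the title was used. No 2 libraries held identical values (0 of 1711 pairs).

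The test was limma 3.58.1 (R 4.3.3) with a mean trend on log2(TPM + 0.1), 1 fit per line over its 4 groups, on genes with any TPM above 0 in that line (20594 in the Pcgf1 line, 20279 in the Ring1A-pm;Ring1B-cpm line). Fold changes on this scale understate changes of low genes. Benjamini-Hochberg adjustment ran over all genes tested, and a gene was called at adjusted p under 0.05. Ratios of *Klf4* to a paralogue were compared by two-sided exact permutation of group means, adjusted over 16 comparisons. The fits were tested on simulated data with known changes between control EBs and control ESCs. In the Pcgf1 line 38% of changes of 1 on the log2 scale were recovered, and 77% of changes of 2. In the Ring1A-pm;Ring1B-cpm line 15% and 68% were recovered, so a gene that was not called may still differ. The simulated noise was independent between libraries, without library series, unlike the data.

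For same-numbered libraries of the Pcgf1 line, deviations from group means correlated at r = 0.32 to 0.65 in all 27 pairs over 13400 genes. Numbers go with the library series, which was read from the leading part of the library identifier in the file headers. Different numbers of the same series were not compared, so pairing and series cannot be told apart. Blocked values of that line are given where they change a call. Alternatives were a pseudocount of 1, a filter at mean TPM of 1, median-of-ratios and quantile scaling, a fit of only the groups compared, and leaving out each library. Named genes are the 5 members, list genes called or leading their list, and the 5 genes (*Klf4*) or 2 genes (others) most like a member. Of the last set 1 gene is not reported here. The members and lists were chosen with earlier results of these data known. Promoter sequences are from RefSeq (GRCm38.p6), where 4 of the 5 genes matched, *Klf5* being the other.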

Additional observations from a re-analysis of the deposited data

Results flagged for a closer look

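*Klf2* in control ESC replicate 1 of the Pcgf1 line was 464 TPM, apart from the other 3 control ESC libraries at 582, 591 and 598 TPM (gap over range 0.882, above Dixon's 95% critical value for 4 samples). It was the only one of 20 gene and group combinations of that line to stand apart, and chance gives about 1 in 20. That library was the only control ESC library of series S05. Mutant ESC replicate 1, also of S05, had the lowest *Klf2* of its group too, at 287 TPM against 406 to 544 TPM. The part of library series was not tested.

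In the Ring1A-pm;Ring1B-cpm line the mutant effect on *Klf2* had opposite directions in the stages, lower in both mutant ESC libraries and higher in both mutant EB libraries than in all controls of that stage. The difference of the effects was 1.60 on the log2 scale and did not pass the test over all genes (limma adjusted p = 0.163). *Klf5* showed the same directions without overlap, with a difference of 1.17 (limma adjusted p = 0.533). Of all genes 12.9% were lower without overlap in mutant ESCs, and 30.1% were higher without overlap in mutant EBs. The share of all genes with both was not counted.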

How the results depend on the processing

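Of the values recomputed for the main comparisons under other settings or without a library, 321 kept their direction and side of the threshold (counts within 1.5 times), 73 moved, 59 lost a call, 3 gained one and 6 changed sign. Where a value below changed, the cause was not tested unless stated. Depth is unknown and the groups of 2 libraries limit every result of the Ring1A-pm;Ring1B-cpm line.

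With the replicate number as a block, genes called in the Pcgf1 line went from 5138 to 9050 for control EB against control ESC, from 3770 to 7573 for mutant EB against mutant ESC, from 132 to 1094 for mutant against control ESC, from 402 to 2143 for mutant against control EB and from 1 to 333 for the difference of the mutant effects. *Klf4* in mutant against control EBs stayed at 1.86 and gained its call, and of the 5 genes only those named above changed call under the block. The paired sign-flip test of the *Klf4* ratios to *Klf2*, *Klf3*, *Klf5* and *Klf9* gave -4.33, -6.43, -4.28 and -6.52 (control EB against control ESC), -3.53, -4.51, -3.52 and -5.14 (mutant cells) and 1.47 (*Klf2*, mutant against control EB), with the same sign in every pair. It called none of them, since 4 or 5 pairs cannot give an exact p below 0.125 or 0.0625. In the Ring1A-pm;Ring1B-cpm line same-numbered libraries correlated at r = 0.11 to 0.38, with only 2 numbers, so they share a number. The block there called 2018 genes (control EB against control ESC), 102 (mutant cells), 1326 (ESC), 2056 (EB) and 4 (difference of effects), and called *Klf4* in mutant EB against mutant ESC (-1.49).

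Other settings changed mainly counts in comparisons with few calls. Mutant against control ESC of the Pcgf1 line had 233 genes with a pseudocount of 1, 208 with median-of-ratios scaling and 207 with quantile normalization. The difference of effects had 8, 12 and 27 in that order and 3 at a mean TPM of at least 1, and mutant against control EB had 68 when only those groups were fitted. In the Ring1A-pm;Ring1B-cpm line a fit of only 2 groups called 464 genes (control EB against control ESC), 169 (EB), 0 (ESC) and 0 (mutant cells), with fewer samples behind the spread. Mutant EB against mutant ESC had 5 with a pseudocount of 1 and 42 with quantile normalization, mutant against control ESC 207 with quantile normalization, and the difference of effects 13 with a pseudocount of 1. The *Klf4* rise in mutant EBs of that line was 1.18 (pseudocount 1), 1.06 (median of ratios), 1.15 (quantile) and 1.19 (2 groups), none called (limma adjusted p = 0.053, 0.0605, 0.0581 and 0.109), and the *Klf2* fall in mutant ESCs was not called with quantile normalization (0.0585) or 2 groups (0.121). Median-of-ratios scaling reversed *Klf4* in mutant ESCs (-0.05) and *Klf9* in mutant EBs (-0.07), both uncalled. The genes called higher and lower in mutant EBs went from 763 and 155 to 634 and 295 with it and to 481 and 299 with quantile normalization, which also gave 167 and 40 against 475 and 40 in mutant ESCs, and 369 and 184 against 222 and 180 in mutant EBs of the Pcgf1 line.

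Leaving out each library of the Pcgf1 line gave 211 to 483 genes (mutant against control EB), 34 to 184 (ESC) and 0 to 7 (difference of effects). *Klf4* in mutant EBs ranged from 1.44 to 2.42. The ratio of *Klf4* in control EBs against control ESCs was -4.54 to -4.22 (*Klf2*), -6.47 to -5.88 (*Klf3*), -4.31 to -3.63 (*Klf5*) and -6.52 to -6.15 (*Klf9*), uncalled in all 9 cases, where fewer samples raise the smallest p. The ratio to *Klf2* in mutant against control EBs was 1.28 to 1.69 and lost its call in 5 of 10 cases. Uncalled values that changed sign were the *Klf4* to *Klf5* ratio in ESCs (-0.19 to 0.41), *Klf5* (-0.34 to 0.57) and *Klf9* (-0.15 to 0.24) in ESCs, and the difference of effects of *Klf3* (-0.25 to 0.18). In the Ring1A-pm;Ring1B-cpm line, where a lone sample is assumed to vary like the other groups, the counts were 156 to 197 (control EB against control ESC), 33 to 130 (EB), 39 to 78 (mutant cells), 30 to 52 (ESC) and 0 to 42 (difference of effects). Between control stages *Klf4* was -2.99 to -2.18, *Klf2* -1.10 to -0.80 and *Klf5* -2.17 to -1.56. In mutant against control EBs *Klf4* was 0.79 to 1.59, *Klf3* -0.11 to 0.69 and *Klf9* -0.15 to 0.28, and in ESCs *Klf2* was -1.14 to -0.72, *Klf4* -0.08 to 0.27 and *Klf3* -0.05 to 0.01. *Klf9* in mutant cells was 0.00 to 0.43, and the difference of effects -0.09 to 0.71 for *Klf3* and -0.10 to 0.32 for *Klf9*.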
